A study of Mus musculus with 24 samples.

Results

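Amino acid transporters of the plasma membrane were followed through the first 4 h after restimulation of Th1 effector cells, the helper T cells known for secreting interferon gamma. The group is made of 7 genes chosen by name, with earlier results of these data known: Slc3a2, Slc7a5, Slc7a6, Slc1a5, Slc7a1, Slc38a1 and Slc38a2. Their calls and medians beside those of all genes are thus a description. All 7 were among the 9420 genes of the deposited table, and all 7 passed the filter of a mean of at least 1 FPKM in every kind of library. The cells were mouse cells of the DO11.10 strain, which carries a transgenic T cell receptor, and the labels do not give the age or the number of animals. At 0.5, 1, 2, 3 and 4 h the cells had been restimulated with plate-bound anti-hamster immunoglobulin and with soluble antibodies to CD28 (2.5 µg/ml) and to CD3 (1 µg/ml). At 0 h they had not, and the medium of all cells was supplemented with non-essential amino acids and Glutamax, a stabilised form of glutamine.

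A total of 24 libraries of 3 kinds were made. RNA synthesised during a 1 h pulse of 200 µM 4-thiouridine (4sU RNA) was measured at 1 and 4 h with 2 libraries each, at 2 and 3 h with 1 library each, and at 0 h with 2 libraries. Total RNA was measured at 4 h with 2 libraries, at 1 and 2 h with 1 library each, and at 0 h with 2 libraries. Ribosome-protected fragments (RP), the pieces of mRNA covered by ribosomes, were sequenced at 1 and 4 h with 2 libraries each, at 0.5 and 2 h with 1 library each, and at 0 h with 2 libraries. A separate pair of 4sU libraries, with a 0.5 h pulse of 500 µM, covered 0.5 h and 0 h. Levels are FPKM, which divide fragment counts by gene length and library total. Whole-read steps in the low values resolved the depth of 11 of the 24 libraries, at 8.89 to 26.2 M (mega) reads for the 8 RP libraries and 4.87 M for total RNA 0 h replicate 2, and the depth of the other 13 is unknown.

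Amino acid transporters set how fast a T cell can take up the building blocks of protein, and leucine and arginine entering through them are sensed by the kinase complex mTORC1. Slc3a2, the CD98 heavy chain, does not carry amino acids itself but brings light chains such as Slc7a5 and Slc7a6 to the cell surface. Mouse T cells that lack Slc7a5 are known to grow and differentiate poorly after activation. The other transporters work without this heavy chain.

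Cd4, Cd3e and the Th1 factor Tbx21 were present in every library. Markers of CD8 T cells, with 6 of 6 in the table and none at 0, summed to 935 to 1180 FPKM in RP replicate 1 and 203 to 240 FPKM in RP replicate 2. In total RNA they summed to 288 to 373 FPKM in replicate 1 and 45.9 to 56.1 FPKM in replicate 2. Their ranges at 4 h and 0 h overlapped, at 203 and 1156 FPKM in RP at 4 h against 222 and 1130.0 FPKM at 0 h. Replicate 2 was above replicate 1 for Slc7a5 in all RP and total RNA groups, by 0.52 to 0.97 on the log2 scale, and replicate 1 was above replicate 2 for Slc1a5 in every replicated group, by 0.16 to 0.93. B cell markers (4 of 6 in the table) summed to 6.50 and 7.39 FPKM in RP at 4 h, against 17.0 and 62.9 FPKM at 0 h. Of 8 listed dendritic cell markers, H2-Aa, H2-Ab1, H2-Eb1 and Cd74 were in the table, and Itgax, Flt3, Zbtb46 and Xcr1 were not. The 4 present summed to 97.6 and 125 FPKM in RP at 4 h, against 134 and 359 FPKM at 0 h. Their sum does not set dendritic cells apart from B cells. Fewer cells of a type and less RNA per cell cannot be told apart in these bulk samples, and the part of other cells in the transporter values was not tested.

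Promoter sequences were available for Slc3a2, Slc7a1, Slc7a6 and Slc38a2 (RefSeq, GRCm38.p6), and those of 3 genes with different time courses are shown to let their composition be compared. Each is the 250 bases before an annotated start, 5′ to 3′ on the gene's strand. Capitals mark a match to the AP-1 motif TGANTCA.

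Slc7a1 promoter, chr5:148399905-148400154, minus strand: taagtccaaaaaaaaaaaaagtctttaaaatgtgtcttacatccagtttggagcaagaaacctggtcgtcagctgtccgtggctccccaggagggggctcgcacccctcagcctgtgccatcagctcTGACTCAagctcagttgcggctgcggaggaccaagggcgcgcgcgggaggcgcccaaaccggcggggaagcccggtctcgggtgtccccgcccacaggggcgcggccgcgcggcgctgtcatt

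Slc7a6 promoter, chr8:106168604-106168853, plus strand: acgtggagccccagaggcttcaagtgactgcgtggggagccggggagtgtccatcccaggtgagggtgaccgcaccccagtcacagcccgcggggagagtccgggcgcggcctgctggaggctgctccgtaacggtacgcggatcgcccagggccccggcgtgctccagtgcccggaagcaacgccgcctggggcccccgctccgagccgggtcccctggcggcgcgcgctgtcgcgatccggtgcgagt

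Slc38a2 promoter, chr15:96699729-96699978, minus strand: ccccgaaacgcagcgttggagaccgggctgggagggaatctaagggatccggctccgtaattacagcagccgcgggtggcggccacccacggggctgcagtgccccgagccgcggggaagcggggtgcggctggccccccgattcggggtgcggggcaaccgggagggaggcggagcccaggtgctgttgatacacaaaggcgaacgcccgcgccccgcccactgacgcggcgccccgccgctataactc

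The 3 windows shown were rich in C and G, with a GC content of 62.4% for Slc7a1, 74% for Slc7a6 and 72% for Slc38a2, against a median of 52.4% over 32851 promoters. They held 21, 30 and 30 CG pairs, against a median of 6. A second annotated start of Slc7a1 differed from the one shown, with a GC content of 50%, 5 CG pairs and no AP-1 match, and the Slc3a2 window had 53.6% and 11 CG pairs. A second start of Slc7a6 had 77.2% and 38 CG pairs. The match in Slc7a1 began 123 bases before the start, and 6.75% of all promoters held the motif on either strand. The E-box CACGTG, which Myc binds, occurs in 6.02% of promoters, and TGATGNAAN, the element read by Atf4, in 3.44%. Neither was found in any of the 6 windows of Slc3a2, Slc7a1, Slc7a6 and Slc38a2, which says only that these letters are not there.

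After 4 h of restimulation, newly made RNA of Slc7a5, Slc1a5, Slc7a6, Slc7a1 and Slc3a2 had risen by 5.44, 4.33, 4.29, 3.47 and 2.09 fold. These 5 of the 7 passed the limma test at an adjusted p below 0.05, and 14.4% of the 9278 genes tested were called higher. With median-of-ratios scaling the gene counts were 1645 higher and 1374 lower, against 1334 and 1755 as deposited, and the same 5 members were called. The median change of the 7 genes was 1.80 on the log2 scale, against -0.16 over all genes tested (1.94 and -0.01 after that scaling). Slc38a1 and Slc38a2, both sodium-coupled carriers, were not called, and Slc38a2 was lower at 4 h than at 0 h in both replicates. Total RNA rose for 3 of the 7 (Slc1a5, Slc7a1 and Slc7a6), where 6.47% of genes were called higher (587 higher and 637 lower, or 783 and 549 with median-of-ratios scaling). Footprints rose for 4 of the 7 (the same 3 and Slc38a1), where 12.1% were called higher. The median changes of the 7 were 0.89 in total RNA and 1.18 in RP, against -0.10 in each over all genes tested. With the replicate number as a block, 6 were called in 4sU RNA, 5 in total RNA and 6 in RP, with 23.3%, 16.6% and 21.3% of genes called higher. That fit left 1 residual degree of freedom in total RNA and 2 in 4sU RNA and in RP, so its small p-values call for caution. In 4sU RNA, total RNA and RP alike, 6 of the 7 had both 4 h libraries above both 0 h libraries, which was true of 28.7%, 25.3% and 29% of genes, and the exception was Slc38a2 each time.

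**Figure D1:**
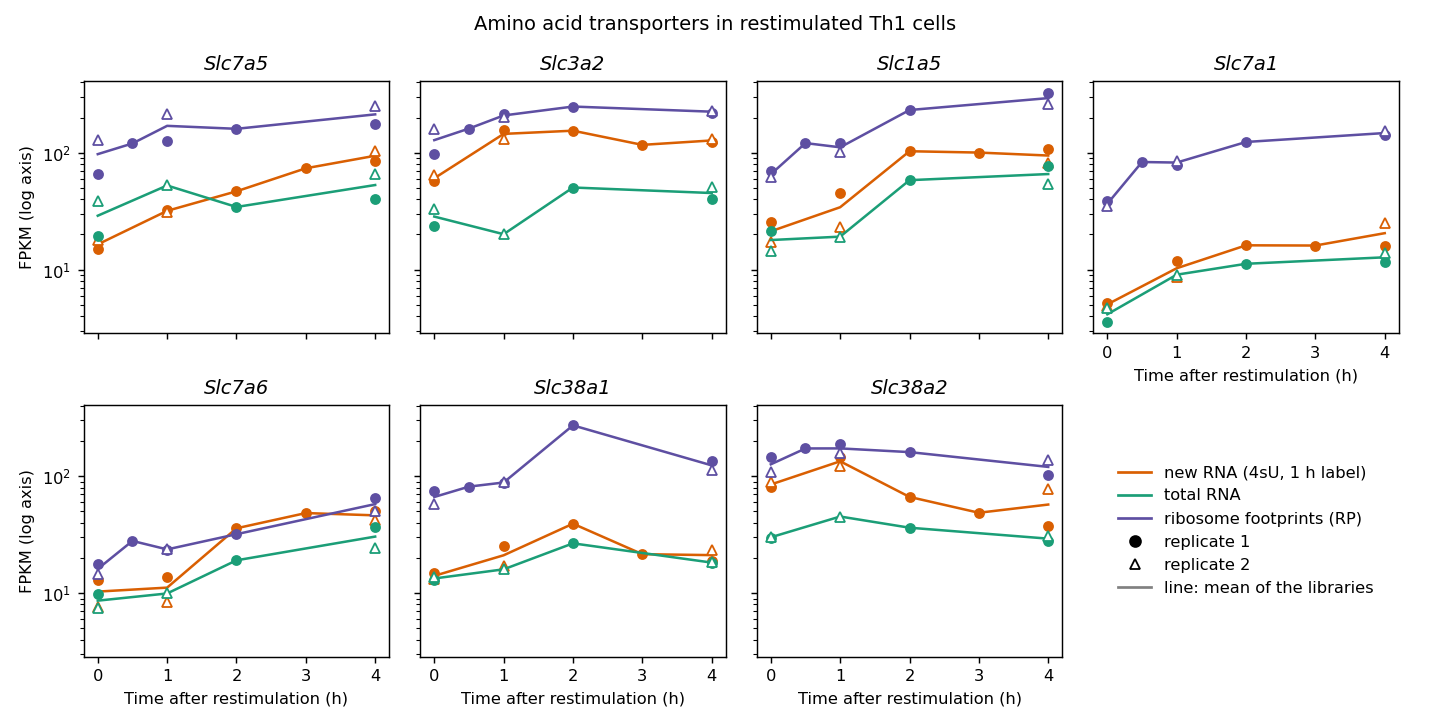
FPKM (log axis) of each transporter against hours after restimulation in 4sU RNA with the 1 h pulse, total RNA and RP. Filled circles are replicate 1, open triangles replicate 2, and lines join the means, so that Slc7a5, Slc1a5, Slc7a1 and Slc7a6 end above their 0 h level in every kind while Slc38a2 peaks at 1 h.

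Slc3a2 (ENSMUSG00000010095, GRCm38 chromosome 19, 8706882 to 8723369, minus strand), the heavy chain, had the highest change of the 7 in new RNA at 1 h. Its 4sU RNA stood at 56.9, 158, 154, 117 and 124 FPKM at 0, 1, 2, 3 and 4 h in replicate 1 and at 64.2, 132 and 131 FPKM at 0, 1 and 4 h in replicate 2. Every later library was above both 0 h libraries, and both 4 h libraries were below both 1 h libraries. The change was 1.24 ± 0.21 SE at 1 h (limma, adjusted p = 0.137, and 0.00903 with the replicate block), 1.34 ± 0.25 SE at 2 h (adjusted p = 0.0409) and 1.06 ± 0.21 SE at 4 h (adjusted p = 0.0128). Between 4 h and 1 h it was -0.18 ± 0.21 SE (limma, adjusted p = 0.542). The call at 4 h was lost without 4sU 0 h replicate 1 (limma, adjusted p = 0.0914) or without 4sU 0 h replicate 2 (0.0723), and the calls at 2 and 3 h were lost without either.

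In total RNA, Slc3a2 stood at 23.8, 50.5 and 39.8 FPKM at 0, 2 and 4 h in replicate 1 and at 33.1, 20.1 and 50.7 FPKM at 0, 1 and 4 h in replicate 2. The single 1 h library was thus the lowest of the 6, at a time when new RNA was high. RP stood at 98.05, 161, 214, 248 and 221 FPKM at 0, 0.5, 1, 2 and 4 h in replicate 1 and at 159, 203 and 229 FPKM at 0, 1 and 4 h in replicate 2. Both 0 h libraries were below every RP library from 1 h on. At 4 h the change was 0.66 ± 0.27 SE in total RNA (limma, adjusted p = 0.143, and 0.00995 with the replicate block) and 0.84 ± 0.26 SE in RP (adjusted p = 0.0650, and 0.0185 with the block).

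Slc7a5 (ENSMUSG00000040010, chromosome 8, 121881150 to 121907694, minus strand), the LAT1 light chain that exchanges leucine and other large neutral amino acids, had the highest fold of the 7 in new RNA at 4 h. Its 4sU RNA stood at 15.03, 32.5, 46.8, 73.7 and 84.3 FPKM at 0, 1, 2, 3 and 4 h in replicate 1 and at 17.9, 31.2 and 104 FPKM at 0, 1 and 4 h in replicate 2. The level was higher at each later time in both replicates. The mean was 94.3 ± 14.1 FPKM at 4 h and 16.5 ± 2.03 FPKM at 0 h (SD, n = 2 each). That is a change of 2.44 ± 0.19 SE (limma, adjusted p = 0.00197), which was called whichever of the 4 libraries was left out, at an adjusted p of 0.00963 to 0.0178. At 1 h the change was 0.92 ± 0.19 SE (limma, adjusted p = 0.179, and 0.0137 with the replicate block).

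The total RNA and the footprints of Slc7a5 differed widely between replicates. Total RNA stood at 19.2, 34.4 and 40.6 FPKM at 0, 2 and 4 h in replicate 1 and at 38.7, 52.5 and 65.4 FPKM at 0, 1 and 4 h in replicate 2. RP stood at 65.9, 120.2, 125, 160.3 and 175 FPKM at 0, 0.5, 1, 2 and 4 h in replicate 1 and at 129, 215 and 251 FPKM at 0, 1 and 4 h in replicate 2. Within each replicate the level at 4 h was the highest, yet the 0 h library of replicate 2 was above the 1 h library of replicate 1 in RP. At 4 h the change was 0.89 ± 0.39 SE in total RNA (limma, adjusted p = 0.167, and 0.000454 with the replicate block) and 1.18 ± 0.42 SE in RP (adjusted p = 0.0916, and 0.00204 with the block).

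Slc7a6 (ENSMUSG00000031904, chromosome 8, 106168857 to 106198706, plus strand), the y+LAT2 light chain that exchanges arginine for neutral amino acids, had its rise in new RNA after 1 h. In 4sU RNA it stood at 13.03, 13.9, 35.9, 48.4 and 50.5 FPKM at 0, 1, 2, 3 and 4 h in replicate 1 and at 7.60, 8.43 and 42.1 FPKM at 0, 1 and 4 h in replicate 2. The 1 h and 0 h libraries overlapped, while both 4 h libraries were above both 1 h and both 0 h libraries. The change was 0.11 ± 0.32 SE at 1 h (limma, adjusted p = 0.918), 1.75 ± 0.39 SE at 2 h (adjusted p = 0.0507, and 0.00248 with the replicate block) and 2.10 ± 0.32 SE at 4 h (adjusted p = 0.00620). Between 4 h and 1 h it was 1.99 ± 0.32 SE (limma, adjusted p = 0.0103), which was lost without 4sU 4 h replicate 1 (0.0582) or without 4sU 1 h replicate 2 (0.0505).

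Total RNA of Slc7a6 averaged 30.5 ± 8.83 FPKM at 4 h and 8.63 ± 1.68 FPKM at 0 h (SD, n = 2 each), a rise of 1.69 ± 0.28 SE (limma, adjusted p = 0.0163). RP stood at 17.7, 28.0, 23.3, 31.9 and 65.3 FPKM at 0, 0.5, 1, 2 and 4 h in replicate 1 and at 14.5, 24.03 and 50.3 FPKM at 0, 1 and 4 h in replicate 2. Both 4 h libraries were above all others, and the rise was 1.77 ± 0.20 SE (limma, adjusted p = 0.00559). The total RNA call was lost without total RNA 4 h replicate 1 (limma, adjusted p = 0.113), and the RP call held without each of the 4 libraries in turn.

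Heavy and light chains are needed in equal number in the assembled transporter, and their FPKM were compared inside each library. In 4sU RNA the sum of Slc7a5 and Slc7a6 was 0.445 ± 0.068 of Slc3a2 at 0 h, 0.297 ± 0.00397 at 1 h and 1.10 ± 0.016 at 4 h (SD, n = 2 each), with single libraries at 0.535 at 2 h and 1.05 at 3 h. New heavy chain RNA thus stood far above new light chain RNA until 2 h, and the groups at 0, 1 and 4 h did not overlap. In RP the ratio was 0.878 ± 0.036 at 0 h, 0.934 ± 0.339 at 1 h and 1.20 ± 0.16 at 4 h (SD, n = 2 each), with 0.920 at 0.5 h and 0.774 at 2 h. The 4 h libraries, at 1.09 and 1.32, were above the 0 h libraries, at 0.853 and 0.904, but of the 1 h libraries replicate 1, at 0.695, was below both 0 h libraries and replicate 2, at 1.17, was between the 4 h libraries. In total RNA it was 1.94 and 1.77 at 4 h, against 1.22 and 1.39 at 0 h. It was 3.10 in the 1 h library in which Slc3a2 was low and 1.06 in the 2 h library, below both 0 h libraries. Light chains other than Slc7a5 and Slc7a6 were not in the sum, and no protein was measured.

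**Figure D2:**
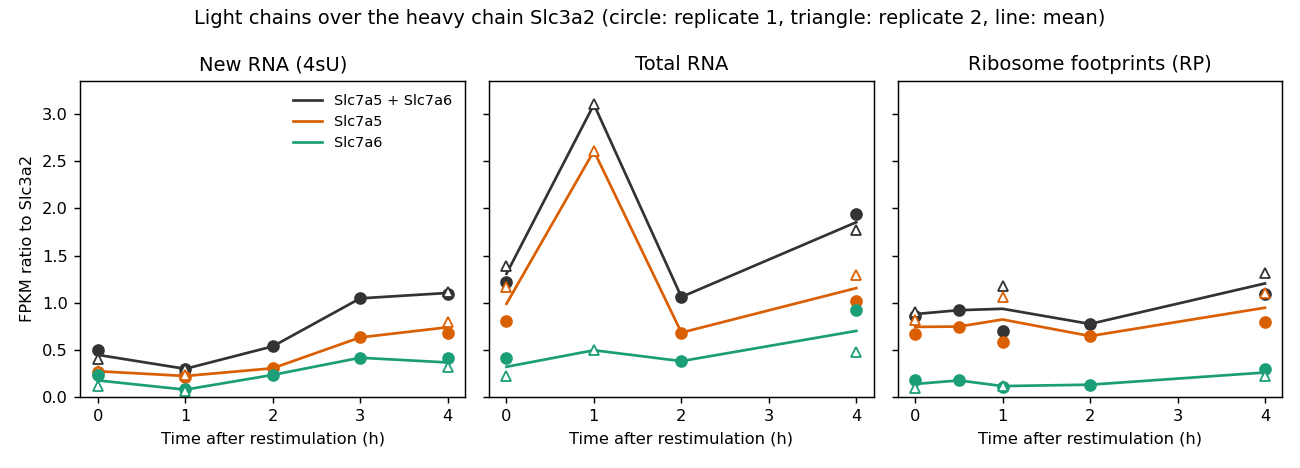
FPKM of Slc7a5, of Slc7a6 and of their sum divided by FPKM of the heavy chain Slc3a2 within each library, against hours after restimulation (circles replicate 1, triangles replicate 2, lines means). The sum lies at 0.297 of Slc3a2 in 4sU RNA at 1 h and at 1.10 at 4 h, and the single total RNA library at 1 h stands apart at 3.10.

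Slc1a5 (ENSMUSG00000001918, chromosome 7, 16781340 to 16798274, plus strand), the ASCT2 exchanger that takes up glutamine, had the highest footprint level of the 7 at 4 h. Its 4sU RNA stood at 25.4, 45.2, 103, 100.4 and 108 FPKM at 0, 1, 2, 3 and 4 h in replicate 1 and at 17.2, 23.2 and 81.6 FPKM at 0, 1 and 4 h in replicate 2. At 1 h the libraries overlapped those at 0 h, and from 2 h every library was far above. Within replicates 1 and 2 the level at 1 h was 1.78 and 1.35 fold that at 0 h (limma with the replicate block, adjusted p = 0.0566). The change was 0.61 ± 0.36 SE at 1 h (limma, adjusted p = 0.517), 2.25 ± 0.44 SE at 2 h (adjusted p = 0.0435) and 2.11 ± 0.36 SE at 4 h (adjusted p = 0.00871). Without 4sU 0 h replicate 2 the adjusted p at 4 h was 0.0531 with limma, and the calls at 2 and 3 h were lost without either 0 h library.

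Total RNA of Slc1a5 averaged 65.8 ± 16.2 FPKM at 4 h and 17.9 ± 4.79 FPKM at 0 h (SD, n = 2 each), a rise of 1.82 ± 0.29 SE (limma, adjusted p = 0.0149, and 0.106 without total RNA 4 h replicate 1). RP stood at 69.2, 121, 121, 232 and 328 FPKM at 0, 0.5, 1, 2 and 4 h in replicate 1 and at 61.8, 102 and 259 FPKM at 0, 1 and 4 h in replicate 2. Every later library was above both 0 h libraries, and both 4 h libraries were the highest. The rise at 4 h was 2.14 ± 0.21 SE (limma, adjusted p = 0.00475), called without each of the 4 libraries in turn. Between 4 h and 1 h RP rose by 1.39 ± 0.21 SE (limma, adjusted p = 0.0163), as it did for Slc7a6 and Slc7a1, 3 of the 7, where 7.65% of genes were called higher. All 3 calls were lost without any 1 of the 4 libraries (limma, adjusted p = 0.0549 to 0.1002 for Slc1a5).

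Slc7a1 (ENSMUSG00000041313, chromosome 5, 148327410 to 148399904, minus strand), the CAT-1 carrier of arginine and lysine, had the lowest total RNA level of the 7 at every time. New RNA stood at 5.17, 11.9, 16.2, 16.1 and 15.8 FPKM at 0, 1, 2, 3 and 4 h in replicate 1 and at 4.93, 8.67 and 25.2 FPKM at 0, 1 and 4 h in replicate 2. Both replicates were above 0 h at each later time. The change was 0.88 ± 0.26 SE at 1 h (limma, adjusted p = 0.262) and 1.80 ± 0.26 SE at 4 h (adjusted p = 0.00572, and at most 0.0386 with any 1 of the 4 libraries left out).

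Footprints of Slc7a1 were already high in the 1 library made at 0.5 h. RP stood at 38.3, 83.4, 79.1, 124 and 142 FPKM at 0, 0.5, 1, 2 and 4 h in replicate 1 and at 34.9, 85.8 and 153 FPKM at 0, 1 and 4 h in replicate 2. The replicates were close to each other, and the groups at 0, 1 and 4 h did not overlap. The change was 1.17 ± 0.21 SE at 0.5 h (limma, adjusted p = 0.507, and 0.105 with the replicate block), 1.15 ± 0.17 SE at 1 h (adjusted p = 0.148, and 0.0217 with the block) and 1.98 ± 0.17 SE at 4 h (adjusted p = 0.00430). Total RNA averaged 12.8 ± 1.56 FPKM at 4 h and 4.16 ± 0.813 FPKM at 0 h (SD, n = 2 each), a rise of 1.42 ± 0.23 SE (limma, adjusted p = 0.0159) that was lost without total RNA 4 h replicate 1 (0.0942) or without total RNA 4 h replicate 2 (0.0717).

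Slc38a1 (ENSMUSG00000023169, chromosome 15, 96571418 to 96642913, minus strand), the SNAT1 carrier that brings in glutamine with sodium, was highest at 2 h in all 3 kinds of library, a time with 1 library each. Its 4sU RNA stood at 14.8, 25.2, 39.3, 21.6 and 18.7 FPKM at 0, 1, 2, 3 and 4 h in replicate 1 and at 13.3, 17.0 and 23.6 FPKM at 0, 1 and 4 h in replicate 2. RP stood at 75.1, 81.5, 87.4, 272 and 135 FPKM at 0, 0.5, 1, 2 and 4 h in replicate 1 and at 57.9, 89.4 and 113 FPKM at 0, 1 and 4 h in replicate 2. In RP the 2 h library was above every other library, and both 4 h libraries were above both 0 h libraries.

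At 2 h Slc38a1 was higher than at 0 h by 1.42 ± 0.29 SE in 4sU RNA (limma, adjusted p = 0.0450) and by 2.03 ± 0.25 SE in RP (adjusted p = 0.0266). Both calls were lost without either 0 h library of their kind, at adjusted p values of 0.139 and 0.175 in 4sU RNA and 0.0784 and 0.0904 in RP with limma. At 4 h the change was 0.55 ± 0.23 SE in 4sU RNA (limma, adjusted p = 0.117, and 0.0469 with the replicate block), 0.42 ± 0.21 SE in total RNA (adjusted p = 0.222) and 0.89 ± 0.21 SE in RP (adjusted p = 0.0294). The RP call at 4 h was lost without any 1 of the 4 libraries (0.0572 to 0.143).

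Slc38a2 (ENSMUSG00000022462, chromosome 15, 96687392 to 96699730, minus strand), the SNAT2 carrier that cells are known to make more of when amino acids are scarce, was the only one of the 7 with both 4 h libraries below both 0 h libraries in new RNA (42.3% of genes). It had the most new RNA of the 7 at 0 h. In 4sU RNA it stood at 80.2, 145, 66.6, 48.7 and 37.3 FPKM at 0, 1, 2, 3 and 4 h in replicate 1 and at 89.8, 123 and 77.3 FPKM at 0, 1 and 4 h in replicate 2. Both 1 h libraries were above and both 4 h libraries below both 0 h libraries. The change was 0.65 ± 0.35 SE at 1 h (limma, adjusted p = 0.473) and -0.65 ± 0.35 SE at 4 h (adjusted p = 0.191). Without 4sU 4 h replicate 2 the change at 4 h was -1.17. Between 4 h and 1 h it fell by 1.30 on the log2 scale (SE 0.35, limma, adjusted p = 0.0397), where 14.7% of genes were called lower. That call was lost without 4sU 1 h replicate 1 (limma, adjusted p = 0.127), without 4sU 1 h replicate 2 (0.109) or without 4sU 4 h replicate 1 (0.0974).

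Total RNA of Slc38a2 stood at 29.9, 36.3 and 27.9 FPKM at 0, 2 and 4 h in replicate 1 and at 30.2, 45.2 and 30.6 FPKM at 0, 1 and 4 h in replicate 2. RP stood at 145, 173, 189, 161 and 102 FPKM at 0, 0.5, 1, 2 and 4 h in replicate 1 and at 108, 157 and 138 FPKM at 0, 1 and 4 h in replicate 2. Both kinds were highest at 1 h, and the 4 h libraries overlapped those at 0 h. The change at 4 h was -0.04 ± 0.22 SE in total RNA (limma, adjusted p = 0.929) and -0.07 ± 0.25 SE in RP (adjusted p = 0.849), and both turned positive with median-of-ratios scaling, at 0.0764 and 0.0135.

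**Figure D3:**
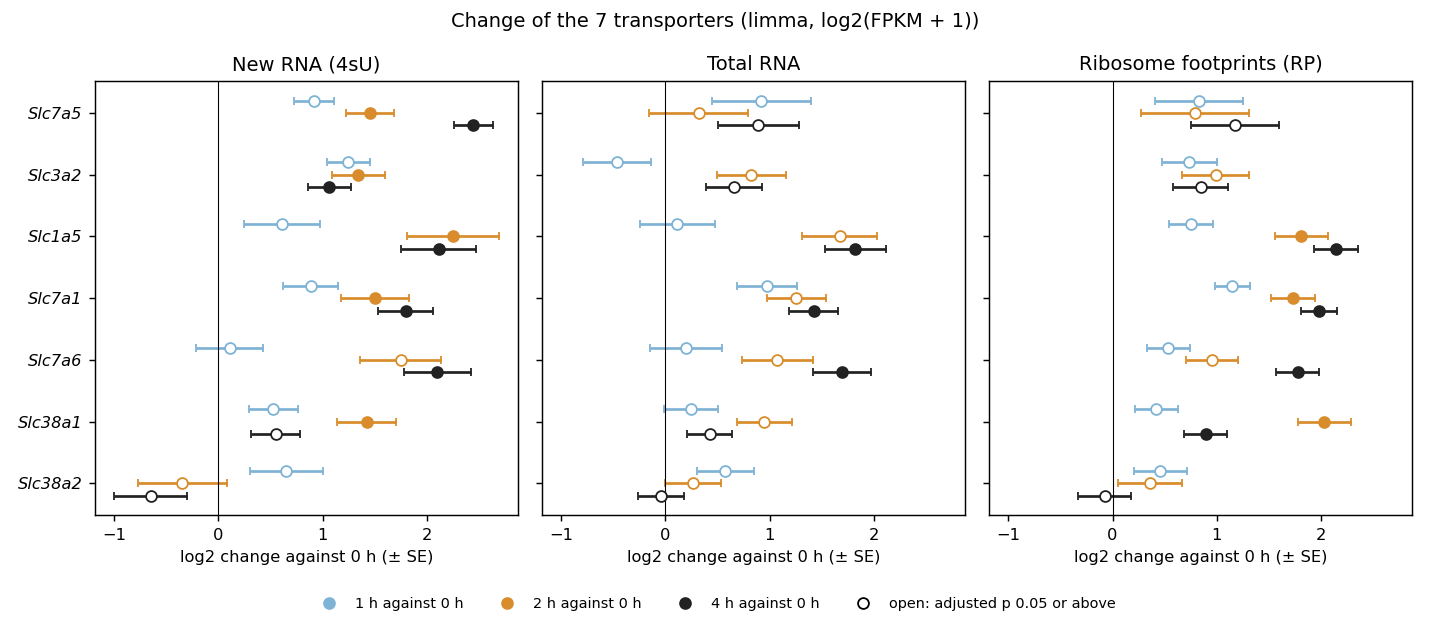
Change on the scale of log2(FPKM + 1) with its SE at 1, 2 and 4 h against 0 h, from limma, for each transporter in 4sU RNA, total RNA and RP; filled points have an adjusted p below 0.05. Slc7a5 has the highest change in 4sU RNA at 4 h (2.44) and an open point in total RNA and RP, and Slc38a2 crosses 0 between 1 and 4 h in 4sU RNA.

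The earliest times gave few calls. At 1 h none of the 7 was called in 4sU RNA, where 0.183% of genes were called higher, although 5 of the 7 had both 1 h libraries above both 0 h libraries (21.8% of genes), all but Slc1a5 and Slc7a6. With the replicate block 2 were called, Slc3a2 and Slc7a5, with 5.21% of genes called higher. At 1 h in RP none was called (0.14% of genes), and 6 of the 7 had both 1 h libraries above both 0 h libraries (17.2% of genes), all but Slc7a5. With the block only Slc7a1 was called at 1 h in RP (1.42% of genes) and in total RNA (1.43%). In RP at 0.5 h and in total RNA at 1 h, limma without the block called no gene at all, and 743 and 1197 genes had an unadjusted p below 0.05. By limma at 2 h, 5 were called in 4sU RNA (3.87% of genes called higher), none in total RNA (0.958%) and 3 in RP (2.96%). The block called 6 at 2 h in 4sU RNA (13.3% of genes), 4 in total RNA (5.33%) and 6 in RP (9.53%). At 3 h, 5 were called in 4sU RNA (9.41% of genes). Between 4 h and 1 h new RNA rose further for Slc7a6 (1.99), Slc7a5 (1.53), Slc1a5 (1.50) and Slc7a1 (0.91), 4 of the 7, where 11.9% of genes were called higher. These 4 had both 4 h libraries above both 1 h libraries, as 27.8% of genes did, and Slc3a2 and Slc38a2 had both below, as 38.3% did. Of these calls, that of Slc7a5 held without each library in turn (limma, adjusted p = 0.0173 to 0.0414), and 1 to 3 members were called in all. In RP, 5 of the 7 had both 4 h libraries above both 1 h libraries (29.4% of genes), and Slc38a2 had both below (32.1%). The 0.5 h pulse of 4sU showed no 2-fold change in any of the 5 members with at least 5 FPKM, where 0.755% of genes were 2-fold higher. In that pair Slc3a2 had 50.6 FPKM at 0.5 h, against 45.0 at 0 h. Slc38a2 had 97.2 FPKM at 0.5 h, against 84.1 at 0 h, and Slc7a5 had 9.23 FPKM in both.

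Together, the 7 transporters held 537 ± 39.5 FPKM of footprints at 0 h, 857 ± 26.9 at 1 h and 1180.5 ± 17.8 at 4 h (SD, n = 2 each). The single libraries held 768 FPKM at 0.5 h and 1229.8 FPKM at 2 h, with the 2 h library above both 4 h libraries. FPKM are levels per length of gene model, which allows an order among the genes. At 0 h the heavy chain Slc3a2 (128 ± 42.8 FPKM), Slc38a2 (127 ± 25.6) and Slc7a5 (97.3 ± 44.5) led in RP, each overlapping the next, followed by Slc38a1, Slc1a5, Slc7a1 and Slc7a6. At 4 h Slc1a5 led at 293 ± 48.5 FPKM, above both libraries of Slc3a2 (225 ± 5.53), which overlapped Slc7a5 (213 ± 53.5). Slc7a1, Slc38a1, Slc38a2 and Slc7a6 followed, and of these Slc38a1 and Slc38a2 overlapped. Slc1a5 made up 28.1% and 21.7% of the summed RP FPKM of the 7 in the 4 h replicates, against 13.6% and 10.9% in the 0 h replicates. Slc38a2 made up 8.75% and 11.6% at 4 h, against 28.4% and 19.2% at 0 h.

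**Figure D4:**
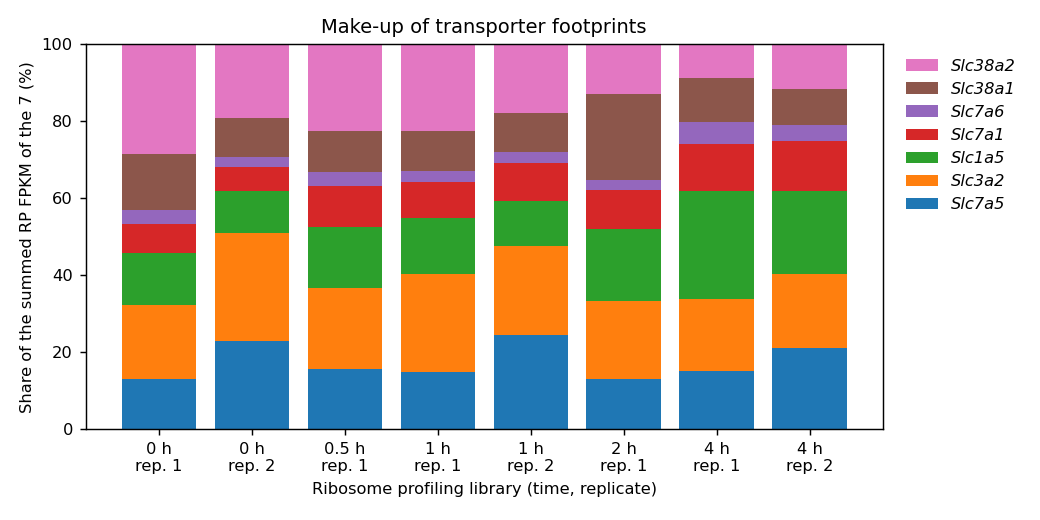
Share of each transporter in the summed RP FPKM of the 7, in percent, for each of the 8 RP libraries ordered by time and replicate. The Slc1a5 band is 28.1% and 21.7% at 4 h against 13.6% and 10.9% at 0 h, and the Slc38a2 band is 8.75% and 11.6% against 28.4% and 19.2%.

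Whole-read steps came out with coding lengths in RP and with exon lengths in the resolved total RNA library. The ratio of RP to total RNA thus mixes both lengths, and only its course over time within a gene can be read. Slc7a1 stood at 12.2 and 11.04 at 4 h, against 10.7 and 7.39 at 0 h, where the median of all genes was 2.60 and 2.87 at 4 h and 2.56 and 2.83 at 0 h. Its gene model has 11530 bases of exon and 1866 of coding sequence, so its ratio cannot be ranked against those of other genes. For Slc7a6 the ratio was 1.78 and 2.08 at 4 h, against 1.81 and 1.95 at 0 h. The difference between the 4 h changes in RP and in total RNA was not called for any of the 7, where limma called 0 genes and 241 had an unadjusted p below 0.05 (with the replicate block, 3 genes and none of the 7). The differences for the 7 ran from -0.04 (Slc38a2) to 0.56 (Slc7a1).

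The ratio of 4sU RNA to total RNA gives the new share of the RNA pool on an arbitrary scale. For Slc7a5 it was 2.08 and 1.60 at 4 h, against 0.781 and 0.463 at 0 h, while the median gene stood at 1.38 and 1.54 at 4 h and 1.46 and 1.61 at 0 h. Slc7a5 thus stood below the median gene at 0 h and above it at 4 h in both replicates. The 4 h change of Slc7a5 was larger in 4sU RNA than in total RNA by 1.55 ± 0.47 SE (limma, adjusted p = 0.601, and 0.0235 with the replicate block). Without the block limma called 0 genes in this contrast and 526 had an unadjusted p below 0.05; with it, 1.69% of genes were called higher. For Slc38a2 the ratio was 1.34 and 2.52 at 4 h, against 2.69 and 2.97 at 0 h. Its difference between the changes in 4sU RNA and total RNA was -0.61 ± 0.42 SE (limma, adjusted p = 0.939, and 0.437 with the replicate block).

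Over the 22 libraries other than the short pulse, after the mean of each kind was removed, Slc1a5 and Slc7a6 varied most alike of the 7 (Pearson r = 0.962). The r values of Slc38a2 with the other 6 ran from -0.595 (Slc7a6) to 0.018 (Slc38a1). These libraries share time points and replicates, so r is a description. Among 5843 genes with at least 5 FPKM in each kind, those most like Slc1a5 were Pus1, a pseudouridine synthase of tRNA (r = 0.990), the ubiquitin ligase Rnf19b (0.988) and the ribosome assembly factor Rrs1 (0.983). Those most like Slc7a6 were the polyamine enzyme Srm (0.988), the RNA polymerase I subunit Polr1b (0.985) and the mitochondrial protein Atad3a (0.983). For Slc7a5 they were Nars, which charges tRNA with asparagine (0.949), the chaperone Hsp90ab1 (0.940) and Car12, a carbonic anhydrase (0.929).

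For Slc7a1 the most alike were the calcium pump Atp2a2 (0.953), the interleukin 2 receptor chain Il2ra (0.950) and the transcription factor Etv6 (0.949). For Slc38a1 they were the NF-kB subunit Rel (0.935), Ppp1r16b (0.925) and the NF-kB inhibitor Nfkbie (0.909). Lower values were found for Slc3a2, with Wsb1 (0.883), the transcription factor Csrnp1 (0.863) and the chaperone Hspa4 (0.859), and for Slc38a2, with Tiparp (0.899) and the histone demethylase family member Jmjd1c (0.885). Rel averaged 49.6 ± 5.01 FPKM in RP at 4 h and 13.8 ± 0.191 at 0 h, and Tiparp averaged 8.84 ± 0.778 FPKM in RP at 4 h and 9.71 ± 0.134 at 0 h (SD, n = 2 each).

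Other amino acid transporters of the plasma membrane were mostly not in the table, which held 6 of 26 listed genes. Of the 5 tested in new RNA after 4 h, limma called 1 higher and 1 lower, with 14.4% and 18.9% of genes called. Slc1a4, a close relative of Slc1a5 that carries serine and alanine, rose by 1.43 ± 0.34 SE to 5.04 ± 2.10 FPKM at 4 h, against 1.24 ± 0.771 FPKM at 0 h (SD, n = 2 each; limma, adjusted p = 0.0224). Slc43a2, a carrier of large neutral amino acids like Slc7a5 but with no exchange, fell by 2.48 on the log2 scale (SE 0.27, limma, adjusted p = 0.00324). It averaged 1.86 ± 0.509 FPKM at 4 h and 15.05 ± 4.14 FPKM at 0 h in 4sU RNA (SD, n = 2 each), and its footprints averaged 5.50 ± 2.09 FPKM at 4 h and 39.8 ± 6.39 FPKM at 0 h. It was also called lower in total RNA (-2.02) and RP (-2.68). In RP 0 of 6 were called higher and 2 lower, with 12.1% and 12.9% of genes called, the other being the glutamate carrier Slc1a1 (-1.60), lost without 3 of the 4 RP libraries in turn (limma, adjusted p up to 0.0886). The Slc1a4 call was lost without 2 of the 4 libraries in turn (up to 0.101). The Slc43a2 calls in 4sU RNA and RP held without each library, and that in total RNA was lost without 1 of 4 (0.104). With the replicate block 2 of the list rose and 3 fell in RP, with 21.3% and 26.7% of genes called.

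Of 10 lysosomal and intracellular amino acid transporters, limma called 2 lower and none higher in new RNA after 4 h. Over all genes tested there, 18.9% were called lower and 14.4% higher. The 2 were Ctns (-1.35), the cystine exporter of lysosomes, and Slc36a1 (-0.79), a proton-coupled carrier. In total RNA 1 of 8 tested was called lower, Ctns (-1.13), where 7.02% of genes were called lower, and in RP 2 of 10, Ctns (-1.68) and Slc38a6 (-0.85), where 12.9% were called lower. Each of these calls was lost without some single library, and with the replicate block 2 rose and 6 fell in new RNA, with 23.3% and 35.4% of genes called. Of the genes by which mTORC1 senses amino acids, limma called 2 of 35 tested higher and 5 lower in 4sU RNA, with 14.4% and 18.9% of genes called (5 higher and 4 lower with median-of-ratios scaling, and 6 and 8 with the replicate block). Fnip2, a partner of folliculin, rose by 1.43 and Castor1, an arginine sensor, by 1.24, while Sesn1, of the leucine-binding sestrin family, fell by 2.05 and Bmt2, which acts in methionine sensing, fell by 1.48. Sesn1 was called lower in all 3 kinds of library, also at -1.82 in total RNA and -2.20 in RP, as was Castor2, at -1.02 in 4sU RNA, -1.11 in total RNA and -1.29 in RP. RP calls were 2 of 36 higher, Fnip2 (1.20) and Mios (0.68), and 2 lower, with 12.1% and 12.9% of genes called. With the block they were 4 and 9, with 21.3% and 26.7% of genes called. Of the calls named here only that of Fnip2 in 4sU RNA held without each library in turn.

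Among 10 genes of transporter trafficking and turnover, limma called 1 higher and 2 lower, both in new RNA and in RP, after 4 h, with 14.4% and 18.9% of all genes called in new RNA and 12.1% and 12.9% in RP. With the replicate block 2 were higher and 5 lower in new RNA (23.3% and 35.4% of genes), and 3 and 3 in RP (21.3% and 26.7%). Ndfip1, an adaptor of Nedd4 family ubiquitin ligases, rose by 1.09 in 4sU RNA and 1.15 in RP. The arrestin-related Txnip fell by 2.59 and 2.57 and Arrdc3 fell by 2.01 and 1.72. Both were also called lower in total RNA (-2.08 and -1.25). The Txnip and Arrdc3 calls in 4sU RNA and RP held without each library in turn, and those of both in total RNA and of Ndfip1 did not. Txnip averaged 140 ± 13.4 FPKM at 4 h and 845 ± 98.3 FPKM at 0 h in 4sU RNA (SD, n = 2 each).

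**Figure D5:**
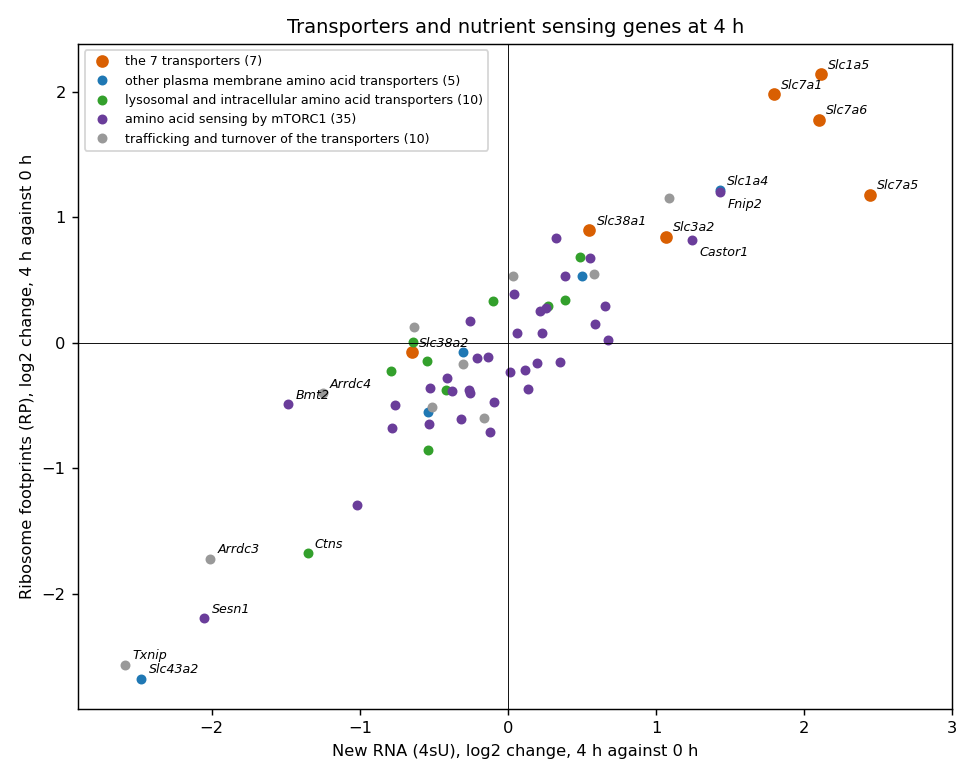
Change at 4 h against 0 h on the scale of log2(FPKM + 1) in 4sU RNA (horizontal) and RP (vertical), for the 7 transporters and 4 lists of related genes, with the number plotted in the legend. The transporters other than Slc38a2 lie at the upper right with Slc1a4, Fnip2 and Castor1, and Slc43a2, Txnip, Sesn1 and Arrdc3 lie at the lower left.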

How the data were processed

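Per the labels, RNA came from DO11.10 Th1 cells, and 4sU and total RNA were depleted of ribosomal RNA. The authors deposited 1 table of FPKM per gene and library. Per the submitters' processing notes, featureCounts of Subread 1.4.6-p3 and GRCm38 were used; no source used here gives the aligner or the gene lengths behind FPKM. Per the deposited values, the highest value of any gene was 0.97 FPKM or more in 4sU RNA and in total RNA and 0.99 or more in RP, so genes low throughout are not in the table. FPKM is relative to each library's total, so a change in RNA per cell is not seen. Symbols were matched for 9412 of 9420 IDs.

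Values were tested as log2(FPKM + 1) by limma 3.58.1 (R 4.3.3) with a mean-variance trend, over genes with a mean of at least 1 FPKM in each kind of library fitted, and all times of a kind shared 1 estimate of the spread. Differences between kinds were tested as interactions. Benjamini-Hochberg adjustment ran over all genes tested (9278 for 4sU RNA, 9078 for total RNA, 9312 for RP), and calls needed an adjusted p below 0.05. Times with 1 library are assumed to vary like the others. A fold change on this scale understates that of low genes. The fits without the block were also run on simulated data in which libraries varied independently. That run cannot show how the fits behave where libraries of a replicate deviate together. The short pulse had 1 library per time and no test.

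The labels do not say whether replicates were separate animals or cultures, so the spread behind the p-values is that of libraries and may be technical. Libraries with the same replicate number deviated together in 28 of 28 pairs of groups (r = 0.306 to 0.790), so the numbers were taken as pairing, from the data and not from the labels. The block fit was an alternative, beside a pseudocount of 0.1, no filter, median-of-ratios scaling and leaving out each library. Within 1 kind of library it left 1 residual degree of freedom for total RNA, against 2 without the block. For 4sU RNA and RP it left 2, against 3. Its p-values thus rest on few residual degrees of freedom, fewest in total RNA, and lean on the spread that limma shares over all genes. They are not firmer than those without the block.

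The members and gene lists were chosen with earlier results of these data known. The genes named were the members, the 3 most correlated genes of each (1 gene is not reported here), and of each list the 2 called genes with the largest change per direction and kind. Figures used matplotlib 3.10.9. Depth was inferred from steps of up to 8 reads, with at least 80% of values whole within 0.1 read.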

Additional observations from a re-analysis of the deposited data

Results flagged for a closer look

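Slc38a2 in 4sU RNA was singled out because its 4 h and 1 h libraries lay on opposite sides of both 0 h libraries, with 37.3 and 77.3 FPKM at 4 h, and 145 and 123 FPKM at 1 h, against 80.2 and 89.8 FPKM at 0 h. The change between 4 h and 1 h was -1.30 (limma, adjusted p = 0.0397), and the call was lost without 4sU 1 h replicate 1 (0.127), 4sU 1 h replicate 2 (0.109) or 4sU 4 h replicate 1 (0.0974).

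Slc7a5 was singled out because its change at 4 h differed between 4sU RNA and total RNA by 1.554 on the log2 scale (limma with the replicate block, adjusted p = 0.0235). Without the block the adjusted p was 0.601. The change was 2.44 in 4sU RNA and 0.89 in total RNA, and replicate 2 was above replicate 1 in total RNA by 0.67 at 4 h and 0.97 at 0 h on the log2 scale.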

How the results depend on the processing

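No member result changed its direction or call with a pseudocount of 0.1 or without the filter on low values. Median-of-ratios scaling turned Slc38a2 at 4 h to 0.0764 in total RNA and 0.0135 in RP, neither called, and brought Slc7a6 in 4sU RNA at 2 h to an adjusted p of 0.0489 (limma). The total RNA comparison at 1 h gave 6 called genes with a pseudocount of 0.1 and 1 with that scaling, against 0.

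The replicate block kept every direction among the members and added 18 calls, with none lost. Members called with the block were 2 in 4sU RNA at 1 h, 1, 4 and 5 in total RNA at 1, 2 and 4 h, 1 and 6 in RP at 1 and 2 h, and 1 for 4sU minus total RNA. Genes called with the block were 986, 2877, 3982 and 5445 in 4sU RNA at 1, 2, 3 and 4 h, and 5022 for 4 h against 1 h. They were 949, 733 and 3618 in total RNA at 1, 2 and 4 h. They were 3, 183, 1806 and 4474 in RP at 0.5, 1, 2 and 4 h, and 3422 for 4 h against 1 h. For RP minus total RNA they were 3 and for 4sU minus total RNA 178.

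Leaving out each library in turn gave these ranges of members called. In 4sU RNA they were 0 at 2 h and 0 at 3 h (5 with all libraries), 3 to 6 at 4 h (5) and 1 to 3 for 4 h against 1 h (5). In total RNA at 4 h they were 0 to 3 (3), with 0 and 91 genes without total RNA 4 h replicate 1. In RP they were 0 at 2 h (3), 3 to 4 at 4 h (4) and 0 for 4 h against 1 h (3). Genes called ranged over 0 to 15 (17), 0 (701), 43 to 125 (1869) and 1096 to 2992 (3089) in 4sU RNA at 1, 2, 3 and 4 h, and 578 to 2448 (2473) for 4 h against 1 h. They ranged over 23 to 81 (93) and 91 to 719 (1224) in total RNA at 2 and 4 h. In RP they ranged over 0 to 25 (13), 7 to 10 (459) and 503 to 1259 (2326) at 1, 2 and 4 h, and 0 to 133 (1310) for 4 h against 1 h. The ratio of light to heavy chains in RP ranged over 0.853 to 0.904 at 0 h, 0.695 to 1.17 at 1 h and 1.09 to 1.32 at 4 h. Of the 31 calls in the other lists at 4 h, 7 held without every library in turn.

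The direction turned for uncalled values only. In 4sU RNA, Slc7a6 at 1 h ranged over -0.24 to 0.46 and Slc38a1 for 4 h against 1 h over -0.25 to 0.29. In total RNA, Slc1a5 at 1 h ranged over -0.15 to 0.38, Slc7a5 at 2 h over -0.16 to 0.81 and Slc38a2 at 4 h over -0.10 to 0.026. In RP, Slc7a5 at 0.5 h ranged over -0.099 to 0.86 and for 4 h against 1 h over -0.034 to 0.74, and Slc38a2 at 4 h over -0.29 to 0.14. For RP minus total RNA the ranges were -0.20 to 0.77 for Slc7a5, -0.16 to 0.53 for Slc3a2, -0.21 to 0.37 for Slc7a6 and -0.25 to 0.18 for Slc38a2, and for 4sU minus total RNA -0.036 to 0.28 for Slc38a1. The cause of these changes was not tested, except that fewer libraries leave fewer degrees of freedom. With 2 libraries a group, a member that was not called is not shown to be unchanged.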

Other observations

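Among 9420 genes ranked by mean FPKM in RP, Slc1a5 stood at percentile 94.8 at 4 h and 77.5 at 0 h, Slc7a1 at 88.9 and 64.3, and Slc7a6 at 74.2 and 42.1. Slc38a2 stood at 86.5 at 4 h and 87.4 at 0 h. Within RP libraries the ratio of Slc38a2 to Slc38a1 was 0.759 and 1.22 at 4 h, against 1.93 and 1.87 at 0 h, and 0.591 in the 1 library at 2 h.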
